A study of Mus musculus with 8 samples.

Results

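The comparison described here set 2 arrays of neurospheres given resveratrol for 24 hours against 2 arrays of neurospheres given its solvent, DMSO, for the same time, 4 of the 8 arrays of the series. Members were taken by sample title, and each resveratrol array was compared with the DMSO array of its own replicate number. All 4 samples were secondary neurospheres grown from the hippocampus of male wild-type C57BL/6 mice aged 7 to 9 weeks and kept in culture for 5 days before the treatment. Neurospheres are balls of cells that grow in suspension from single neural stem or progenitor cells, so each sample is a mixture of stem cells and their early progeny. The dose of resveratrol is given in the labels as 10 with the unit written "mm". The other 4 arrays of the series hold untreated wild-type and Sirt1 knockout neurospheres after 6 days in culture. They came from mice of a 129/ICR background, also aged 7 to 9 weeks, with replicate 1 female and replicate 2 male. These arrays entered the filter on dim probes and the spread shared over the pairs of all 8 arrays. They also entered the test of whether a difference was the same in both arms. For DMSO and resveratrol the labels do not say whether replicates 1 and 2 were separate animals or cultures. A p-value here therefore covers the spread between arrays alone, which may be technical.

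Resveratrol is a plant polyphenol best known as an activator of SIRT1, an NAD-dependent deacetylase. As a reactive phenol it also engages the KEAP1 and NRF2 system: KEAP1 holds the transcription factor NRF2 (gene Nfe2l2) for degradation until electrophiles or oxidants modify KEAP1, and NRF2 then drives genes for glutathione, thioredoxin, conjugating enzymes, heme breakdown and NADPH through the antioxidant response element. In the adult hippocampus, Notch signalling through the repressors Hes1, Hes5 and Hey1 keeps neural stem cells undifferentiated, and neurosphere cultures also hold progenitors that turn on Olig2, Pdgfra and Sox10 on the way to oligodendrocytes.

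Levels are given below as the log2 of the processed signal relative to the 75th percentile of the same array, so that 0 is the level of the 75th percentile probe, and differences are resveratrol minus DMSO on that log2 scale. A level can be compared between arrays for 1 gene, not between genes, since probes differ in brightness. The 75th percentile of the raw signal was 778 and 388 on DMSO arrays 1 and 2 and 740 and 297 on resveratrol arrays 1 and 2, with 0 saturated spots. Probes well above background made up 72.0% and 63.5% of all probes on the DMSO arrays and 66.9% and 58.8% on the resveratrol arrays. The resveratrol arrays were thus dimmer within both pairs, and the part of this in the results was not tested. Replicate 1 of both groups lay on one slide and replicate 2 on another, so the replicate pair and the slide are the same term. Markers of neural cells were widely detected, and none of them is particular to hippocampus. Well above background on all 4 arrays were 25 of 26 neural stem cell, 18 of 20 astrocyte and 18 of 20 oligodendrocyte precursor markers. So were 5 of 12 endothelial, 5 of 14 pericyte, smooth muscle and fibroblast, and 4 of 7 blood markers. At least 58.8% of all probes were well above background on each array, so such counts identify the cells only in part. Of 14 microglial markers with a probe, 4 were well above background on all 4 arrays. Not well above it on any array were 8, among them Aif1, Cx3cr1 and Ptprc.

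Resveratrol was accompanied by more rises than falls. With the pairs as a block, limma called 820 of 13302 genes higher (6.16% of the genes tested) and 295 lower (2.22%) at an adjusted p under 0.05, or 8.38% in all. Of these, 188 rose and 43 fell by at least 2-fold. The median difference over all genes was 0.0128, and rises outnumbered falls at every level of signal: among genes above the 75th percentile, 450 rose and 186 fell, and among genes more than 4 log2 units below it, 33 rose and 17 fell. Across genes the differences of the pairs had a Pearson correlation of 0.506 and a Spearman correlation of 0.534, as a description, since genes are not independent replicates. The spread of the differences was larger in pair 2 (SD 0.504) than in pair 1 (SD 0.316), and 992 of the 1115 called genes had the larger difference in pair 2.

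Each call leans on what the pairs share across genes, since the fit has 1 residual degree of freedom for a gene and 11.9 borrowed from the other genes. When the pairs of all 8 arrays shared one estimate of the spread, 50 genes stayed called as rises (0.376%) and 7 as falls (0.0526%), and all 57 were among the calls above. Without the block, over the same 4 arrays, 0 genes passed (limma; 195 at an unadjusted p under 0.05). Quantile normalization gave 319 rises and 143 falls, the deposited values 425 and 190, averaging all probes of a gene 503 and 155, cyclic loess 84 and 24, and a fit without the intensity trend 2 and 0. Normexp gave 1045 and 541, and without the filter on dim probes limma called 0 genes (3386 at an unadjusted p under 0.05). An adjusted p below is from the 4 paired arrays unless it is said to be from the pairs of all 8 arrays.

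**Figure D1:**
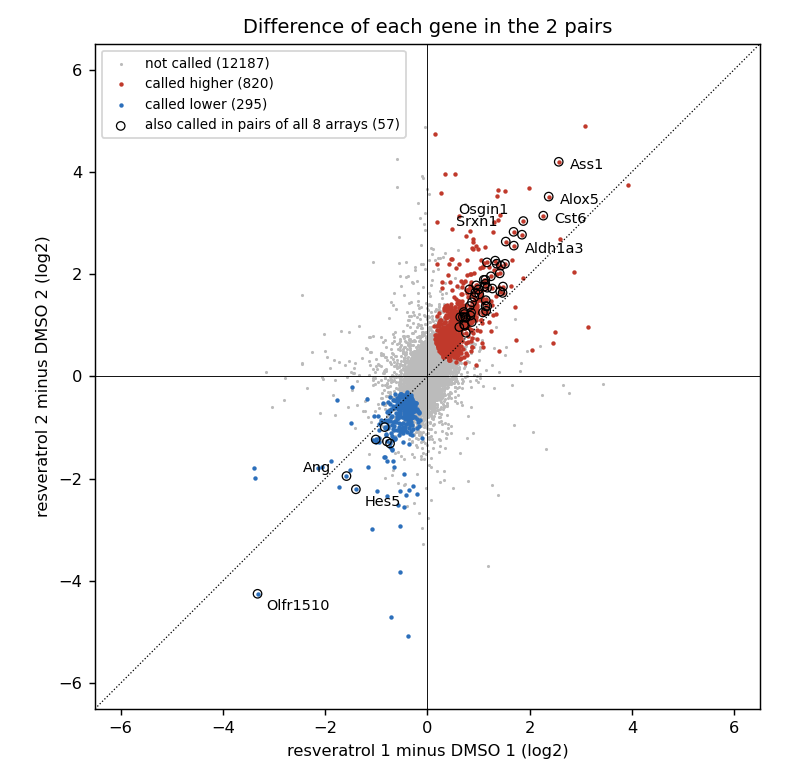
Difference of each of 13302 genes in pair 1 (horizontal) and pair 2 (vertical), resveratrol minus DMSO in log2 units, with 1 point per gene. Red points are the 820 called rises, blue points the 295 called falls, and black circles mark the 57 genes that also passed over the pairs of all 8 arrays; Ass1, Alox5 and Cst6 lie far out in both pairs, and Hes5, Ang and Olfr1510 lie at the lower end.

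Genes of oxidant and electrophile defence were described by 3 lists, in each of which some members rose and 0 fell. The list of xenobiotic enzymes had the highest median difference of all lists with at least 5 measured members, 0.98 (0.65 in pair 1 and 1.32 in pair 2), against 0.0128 over all genes. Of its 19 measured genes, 13 rose and 0 fell, where 6.16% of all genes rose. Heme, iron and NADPH genes had a median of 0.56, with 9 of 17 risen and 0 fallen; without resveratrol replicate 2 the median was -0.02. Among the glutathione and thioredoxin genes 11 of 20 rose and 0 fell, with a median of 0.43. These lists were drawn up with earlier results of these data known, so the counts describe them and are not independent evidence.

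The promoters of these genes were searched for the core of the antioxidant response element, the letters TGACNNNGC on either strand, in the 250 bases upstream of the annotated start. Among 27 risen members of the 3 defence lists with an entry in the RefSeq promoter table (of 33 risen members), 10 held a match (37.0%), against 13.7% of measured genes with any window and 10.2% of all 32851 windows. The lists cover the kinds of genes that NRF2 drives through this element, so the share describes the lists and not the response to resveratrol. The share among members that did not rise was not computed. Short stretches around the match are shown for 7 genes whose values follow, 5′ to 3′ on the strand of the gene (GRCm38.p6), with the match in capitals. In Pir and Prdx1 the match overlaps the AP-1 letters TGANTCA.
Pir, chrX:164269201-164269241, plus strand: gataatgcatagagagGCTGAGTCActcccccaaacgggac
Prdx1, chr4:116685450-116685490, plus strand: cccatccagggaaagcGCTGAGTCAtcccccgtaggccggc
Txnrd1, chr10:82859098-82859138, plus strand: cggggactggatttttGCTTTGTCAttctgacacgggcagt
Gclm, chr3:122245407-122245447, plus strand: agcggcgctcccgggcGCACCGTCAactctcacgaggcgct
G6pdx, chrX:74428913-74428953, minus strand: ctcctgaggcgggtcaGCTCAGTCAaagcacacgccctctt
Mgst1, chr6:138140455-138140495, plus strand: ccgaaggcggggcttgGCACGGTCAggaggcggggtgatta
Gsta3, chr1:21240448-21240488, plus strand: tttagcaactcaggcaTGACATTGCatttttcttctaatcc
In 6 of the 7 the letters read on the opposite strand of the gene. A match is only a run of letters in this window, and binding was not measured.

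Srxn1, the sulfiredoxin that repairs overoxidized peroxiredoxins, had levels of 0.83 and 1.28 with DMSO and 2.51 and 4.11 with resveratrol. Every resveratrol array was above every DMSO array, which was so for 10.3% of all genes (the reverse for 8.71%), and the rise was 4.78-fold (2.26, SE 0.19, adjusted p = 4.67e-05; adjusted p = 0.0295 over the pairs of all 8 arrays). Gclc, the catalytic subunit of the first enzyme of glutathione synthesis, went from 2.52 and 2.33 to 3.36 and 3.52, a 2.02-fold rise (adjusted p = 0.000141; 0.0345 over all pairs). Its modifier subunit Gclm rose by 0.75, the cystine importer Slc7a11 by 0.76 and the thioredoxin reductase Txnrd1 by 0.68. These 3 and Gclc did not overlap between groups. Glutathione reductase Gsr (0.63), the peroxidase Prdx1 (0.58), the conjugate exporter Abcc4 (0.54), the superoxide dismutase Sod1 (0.47), thioredoxin Txn1 (0.47) and Ggct (0.38), which cleaves gamma-glutamyl amino acids, completed the 11. All 6 were higher in both pairs, as were 36.7% of all genes, yet the groups of every one but Abcc4 overlapped, the replicates lying further apart than the treatments.

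Gstm1, an abundant glutathione transferase, read 5.91 and 6.33 with DMSO and 7.02 and 8.08 with resveratrol, 2.71-fold higher (SE 0.14 on a log2 difference of 1.44, adjusted p = 6.14e-05). Gstm3 was 2.74-fold and Gstm2 3.03-fold higher. The Gstm genes are close paralogs, and the probes of such genes can share signal. All 3 passed over the pairs of all 8 arrays as well (adjusted p = 0.0314, 0.0256 and 0.0398). Aox1, an aldehyde oxidase, moved from -0.44 and -0.78 to 1.41 and 1.99, which is 4.96-fold (adjusted p = 1.92e-05). Microsomal Mgst1 rose by 1.26 and Gsta4, which conjugates lipid peroxidation products, also by 1.26. The quinone reductase Nqo1, the usual readout of NRF2 activity, read -1.27 and -0.13 with DMSO against -0.51 and 1.55 with resveratrol. Its groups overlapped, and it rose by 0.76 in pair 1 and 1.68 in pair 2 (adjusted p = 0.00108; 0.0694 over the pairs of all 8 arrays). Gstp1 (0.98), the prostaglandin reductase Ptgr1 (1.04), the aldo-keto reductase Akr1b8 (0.86), the epoxide hydrolase Ephx1 (0.59) and Gstm4 (0.56) rose too. Gsta3 rose by 1.19 on average, with 0.20 in pair 1 and 2.19 in pair 2.

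Hmox1, which opens heme and frees its iron, had levels of 1.86 and 0.97 with DMSO and 2.86 and 2.67 with resveratrol, with no overlap, a 2.55-fold rise (adjusted p = 0.000121; 0.0345 over the pairs of all 8 arrays). Biliverdin reductase Blvrb was 2.07-fold higher, while biliverdin reductase Blvra differed by 0.24 and did not pass (adjusted p = 0.224). The ferritin light chain Ftl1 went from 5.16 and 5.10 to 6.02 and 6.16, or 1.95-fold, and the heavy chain Fth1 rose by 0.81. Both ferritin chains and the iron exporter Slc40a1 (1.40) thus moved in the same direction. Slc40a1 was well above background on 1 of 2 DMSO arrays. The NADPH-producing enzymes G6pdx (0.87) and Me1 (0.86) rose by nearly equal amounts and passed over all pairs (adjusted p = 0.0345 and 0.0463). Pir, an iron-binding nuclear protein, was 3.49-fold higher, from -2.54 and -2.40 to -1.10 and -0.23. The heme transporter Slc48a1 rose by 0.56.

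Of the genes that control the response, Nfe2l2 itself rose by 0.40 (0.21 and 0.59 in the pairs, adjusted p = 0.0462), a call that did not hold over the pairs of all 8 arrays (adjusted p = 0.237). Keap1 differed by 0.32 and did not pass (adjusted p = 0.0724). Sqstm1, the autophagy receptor that binds KEAP1, rose 2.00-fold, from 4.28 and 4.70 to 4.87 and 6.11. In all, 2 of 8 regulators rose, with a list median of 0.28. Of the aryl hydrocarbon receptor list, 2 of 6 measured genes rose: Nfe2l2, which it shares with the regulators, and Cyp1b1, which oxidizes polyphenols and rose by 0.58. Cyp1a1, the most inducible target of that receptor, did not pass the filter on dim probes. Of other stress systems, 5 of 18 heat shock genes rose, led by the small chaperone Hspb8 (1.69, from -2.63 and -2.0 to -1.26 and 0.01), with Hspb1 (0.96), Hspa1a (0.85), Bag3 (0.80) and Cryab (0.65). The list median was 0.06, and 6.16% of all genes rose. The metallothioneins Mt1, Mt2 and Mt3 rose by 0.42, 0.44 and 0.47.

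**Figure D2:**
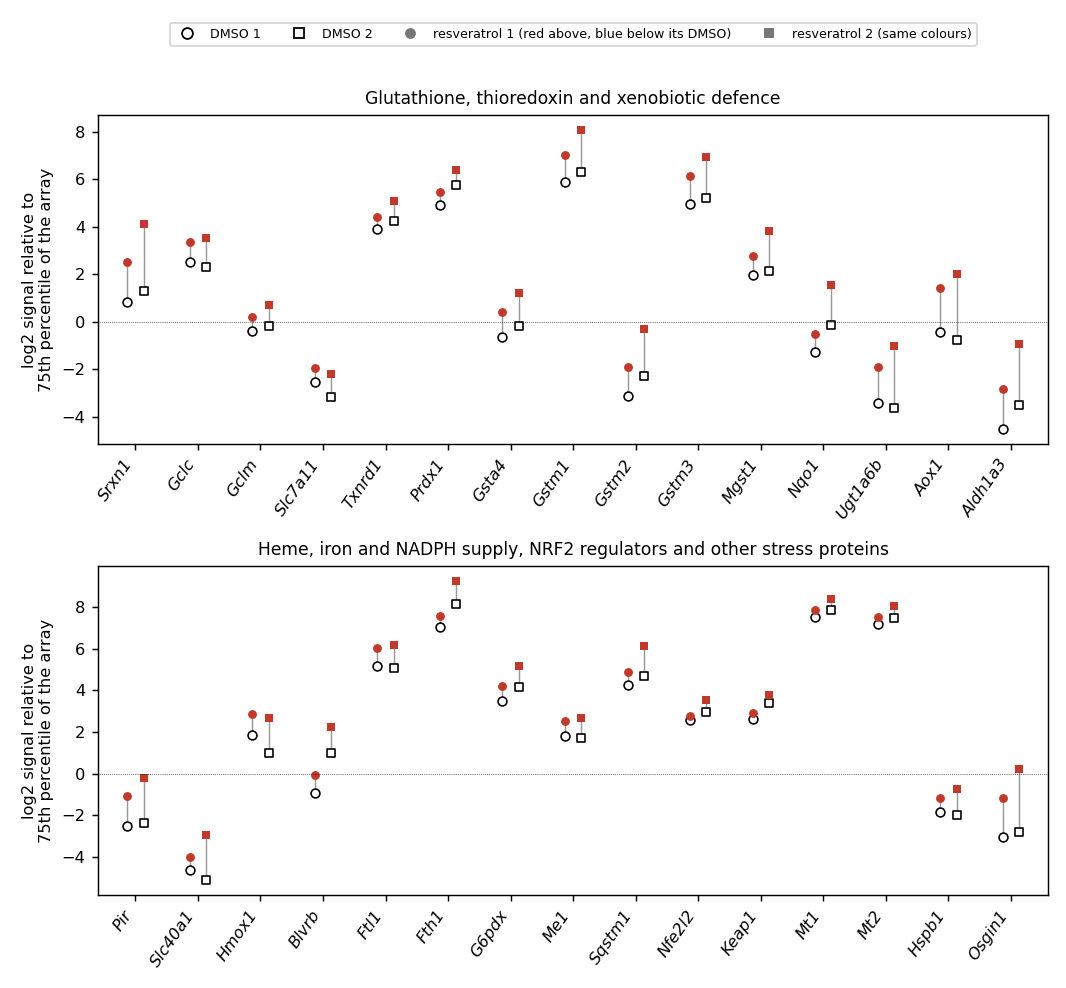
Level of defence and stress genes on the 4 arrays, as log2 signal relative to the 75th percentile of the array (vertical), with open symbols for DMSO, filled symbols for resveratrol, circles for replicate 1, squares for replicate 2, and a line joining each pair. All genes shown were higher with resveratrol in both pairs, with a wider step in pair 2 for most, and Keap1 is the gene that did not pass the test.

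Apart from the lists, the 12 genes that rose most by the smaller of their pair differences included Ass1, Alox5, Cst6, Osgin1, Aox1 and Aldh1a3. Ass1, which joins citrulline and aspartate on the way to arginine, went from -5.17 and -4.28 to -2.60 and -0.08, or 10.4-fold (SE 0.31 on a log2 difference of 3.38, adjusted p = 5.79e-05). Alox5, the lipoxygenase that starts leukotriene synthesis, went from -3.32 and -2.55 to -0.94 and 0.96, or 7.69-fold. Cst6, a secreted inhibitor of cysteine proteases, had the smallest adjusted p of all genes (7.79e-06) and was 6.52-fold higher, from -1.47 and 0.00 to 0.80 and 3.15. Osgin1, an oxidative stress induced growth inhibitor, rose 5.49-fold. Aldh1a3, which makes retinoic acid from retinaldehyde, rose 4.36-fold. In these 5 and Aox1 every resveratrol array was above every DMSO array, as in 10.3% of all genes. The ranking by the smaller pair difference itself favours such genes. These 5 and Aox1 passed over the pairs of all 8 arrays, and the others of the 12 did not. The protease inhibitor Serpinb3d rose by 1.90, and the olfactory receptor Olfr391, well above background on 1 DMSO array, by 2.64.

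The remaining 4 of the 12 were not well above background on either DMSO array, so only a lower bound on the fold can be given. The bound sets the resveratrol mean against the higher of the detection limit and the probe's own signal on each DMSO array. That limit is the weakest signal of any probe well above background on the array, so the bounds are approximate. The proton channel Otop3 was at least 6.09-fold higher, Mab21l3 at least 3.53-fold (another of its probes was well above background), the photoreceptor homeobox gene Crx at least 3.12-fold and the sarcoglycan Sgca at least 2.67-fold. These are faint probes on which cross-hybridization was not tested.

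Of 27 measured genes of the p53 response 17 rose and 0 fell, where 6.16% of all genes rose and 2.22% fell, and the list median was 0.52 (0.43 and 0.60 in the pairs). Cdkn1a, the inhibitor p21 that stops the cell cycle, read 3.15 and 3.97 with DMSO and 4.12 and 5.27 with resveratrol, 2.20-fold higher without overlap (adjusted p = 6.14e-05; 0.0685 over the pairs of all 8 arrays). The death receptors Fas (2.58-fold) and Tnfrsf10b (2.48-fold) and the BH3 proteins Pmaip1 (2.48-fold) and Bbc3 (1.90-fold) rose. Fas and Bbc3 were the members that also passed over all pairs (adjusted p = 0.0463 each). Perp, a membrane protein of desmosomes and apoptosis, moved from -1.86 and -1.55 to -0.45 and 1.59, with 1.41 in pair 1 and 3.15 in pair 2. The stress cytokine Gdf15 was 2.18-fold higher. Mdm2, the ubiquitin ligase that p53 induces against itself, rose by only 0.48, and Ccng1 by 0.52. The remaining rises, all between 0.40 and 0.73, were Trp53inp1, Phlda3, Plk2, Polk, Sesn2, Gtse1, Eda2r and Ei24.

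Interferon response genes had the second highest list median, 0.64 (0.35 in pair 1 and 0.86 in pair 2), with 12 of 27 risen (6.16% of all genes) and 0 fallen (2.22%). Lgals3bp, a secreted galectin ligand, went from 0.37 and 0.51 to 1.37 and 2.06, 2.42-fold higher (adjusted p = 0.000113). The antigen processing genes Tap1 (1.06), Psmb9 (1.05) and Psmb8 (0.89) rose, as did the antiviral genes Rsad2 (1.18), Usp18 (1.13), Gbp2 (1.04), Bst2 (0.87) and the RNA sensor Ddx58 (0.65). Ifi35 (1.08), the factor Irf1 (0.62) and Ifi27 (0.52) made up the 12. In this list 0 members passed over the pairs of all 8 arrays, where Rsad2 came closest (adjusted p = 0.0665). Among inflammatory genes 3 of 16 rose and 1 fell, against the same shares. The chemokine Cxcl10 was 2.90-fold higher, from -3.96 and -3.60 to -2.24 and -2.25, with Ccl2 (0.67) and Nfkb2 (0.65), while the adhesion molecule Vcam1 fell by 0.63. The summed signal of the microglial markers, as multiples of the 75th percentile, was 2.66 and 3.61 with DMSO and 2.74 and 5.82 with resveratrol. Its part in these rises was not tested, and limma called 0 of 4 measured microglial genes.

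Of 23 measured Notch genes 6 fell, 0 rose and 17 did not pass, where 2.22% of all genes fell. In both pairs 14 were lower and 4 higher, against 32.2% and 36.7% of all genes, and the median was -0.18. Hes5, a direct Notch target that holds neural progenitors undifferentiated, stood at 5.21 and 5.12 with DMSO and 3.81 and 2.91 with resveratrol, 3.49-fold lower (SE 0.15 on a log2 difference of -1.80, adjusted p = 4.67e-05; 0.0256 over the pairs of all 8 arrays). Mfng, which adds sugars to Notch, went from -1.08 and -1.41 to -2.02 and -2.60. The feedback inhibitor Nrarp (-0.89), the ligands Dll3 (-0.78) and Dll1 (-0.68) and the effector Hey1 (-0.54) fell as well. In all 6 the groups did not overlap, as in 8.71% of all genes. Hes5 was the 1 member that passed over the pairs of all 8 arrays. Hes1, the other main effector, read -1.0 and -2.0 with DMSO and -0.90 and -2.31 with resveratrol, a difference of -0.10 of opposite sign in the pairs (adjusted p = 0.765), and the receptor Notch1 differed by -0.14 (adjusted p = 0.517). 

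Because Hes5 had the largest fall of the list, the 250 bases upstream of its start are shown, on the plus strand of chr4:154960673-154960922 (GRCm38.p6), with matches to the core of the site of RBPJ, the DNA-binding partner of Notch, in capitals.
Hes5: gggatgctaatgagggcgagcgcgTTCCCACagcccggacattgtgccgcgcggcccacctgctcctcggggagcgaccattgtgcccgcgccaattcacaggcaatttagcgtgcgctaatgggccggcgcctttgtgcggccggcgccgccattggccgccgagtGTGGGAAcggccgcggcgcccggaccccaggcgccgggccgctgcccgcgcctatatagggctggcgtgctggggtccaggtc
The letters GTGGGAA occur 2 times, once on each strand, with the first base of the match 226 and 83 bases upstream of the start. Of all 32851 windows 5.42% held the letters, and of 4 fallen Notch genes in the promoter table Hes5 was the one that did.

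Of 19 measured genes of oligodendrocyte precursors 8 fell and 0 rose, where 2.22% of all genes fell, and 16 were lower and 0 higher in both pairs, where 32.2% of all genes were lower in both pairs. The median was -0.22. Gpr17, a receptor of committed precursors, dropped from 4.96 and 3.72 to 3.80 and 1.95, 2.76-fold (adjusted p = 5.79e-05; 0.0694 over the pairs of all 8 arrays). Pdgfra, the receptor that keeps precursors dividing, went from 1.96 and 1.39 to 0.95 and 0.11, and Lims2 from 1.75 and 1.94 to 0.68 and 0.70, both without overlap and 2.21-fold and 2.23-fold lower. Sox10, the lineage's master transcription factor, fell, with -0.84 in pair 1 and -0.86 in pair 2. Tmem100 (-0.95), C1ql1 (-0.64), Sox8 (-0.58) and Lhfpl3 (-0.45) fell too. The factors that come first in the lineage differed less: Olig1 by -0.22 and Olig2 by -0.16, neither of which passed (adjusted p = 0.243 and 0.384). Cspg4, the NG2 proteoglycan of precursors, differed by -0.21 (adjusted p = 0.328). None of the precursor genes passed over the pairs of all 8 arrays.

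In the mature oligodendrocyte list, 4 of 16 genes fell and 2 rose, where 2.22% of all genes fell and 6.16% rose. The myelin lipid enzymes Fa2h (-1.06) and Gal3st1 (-0.97) and the phosphodiesterase Cnp (-0.42) fell, while the transferrin gene Trf (0.45) and Enpp6 (1.55), a marker of newly forming oligodendrocytes, rose. Enpp6 differed by 2.46 in pair 1 and 0.65 in pair 2. Mbp differed by -0.28 (adjusted p = 0.326). The summed signal of the precursor markers was 401 and 408 with DMSO and 356 and 333 with resveratrol. In bulk samples such as these, fewer cells of a type and less RNA per cell cannot be told apart.

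Stem cell markers were split. Gfap, the intermediate filament of radial stem cells and astrocytes, rose 3.24-fold, from -3.46 and -3.22 to -1.84 and -1.46 (adjusted p = 0.000139), though not over the pairs of all 8 arrays (adjusted p = 0.149). The quiescence marker Hopx (0.56), the matrix protein Tnc (0.50), the inhibitor of differentiation Id1 (0.47) and vimentin, Vim (0.44), rose. Of 25 measured stem cell genes 5 rose and 0 fell, where 6.16% of all genes rose and 2.22% fell. The 0 of 25 is near the latter share. Sox2 differed by -0.21 and Nes by 0.30 (adjusted p = 0.253 and 0.08). The list median was 0.03, near that of all genes. Of 19 astrocyte genes, Gfap and Clu (0.63) rose and the growth factor receptor Fgfr3 (-0.73) fell. Of 18 neuronal genes, Dcx, the microtubule protein of neuroblasts, fell by 0.56, and the calcium buffer Calb2 (1.22) and Celf4 (0.68) rose. Calb2 was well above background on 1 of 2 DMSO arrays.

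**Figure D3:**
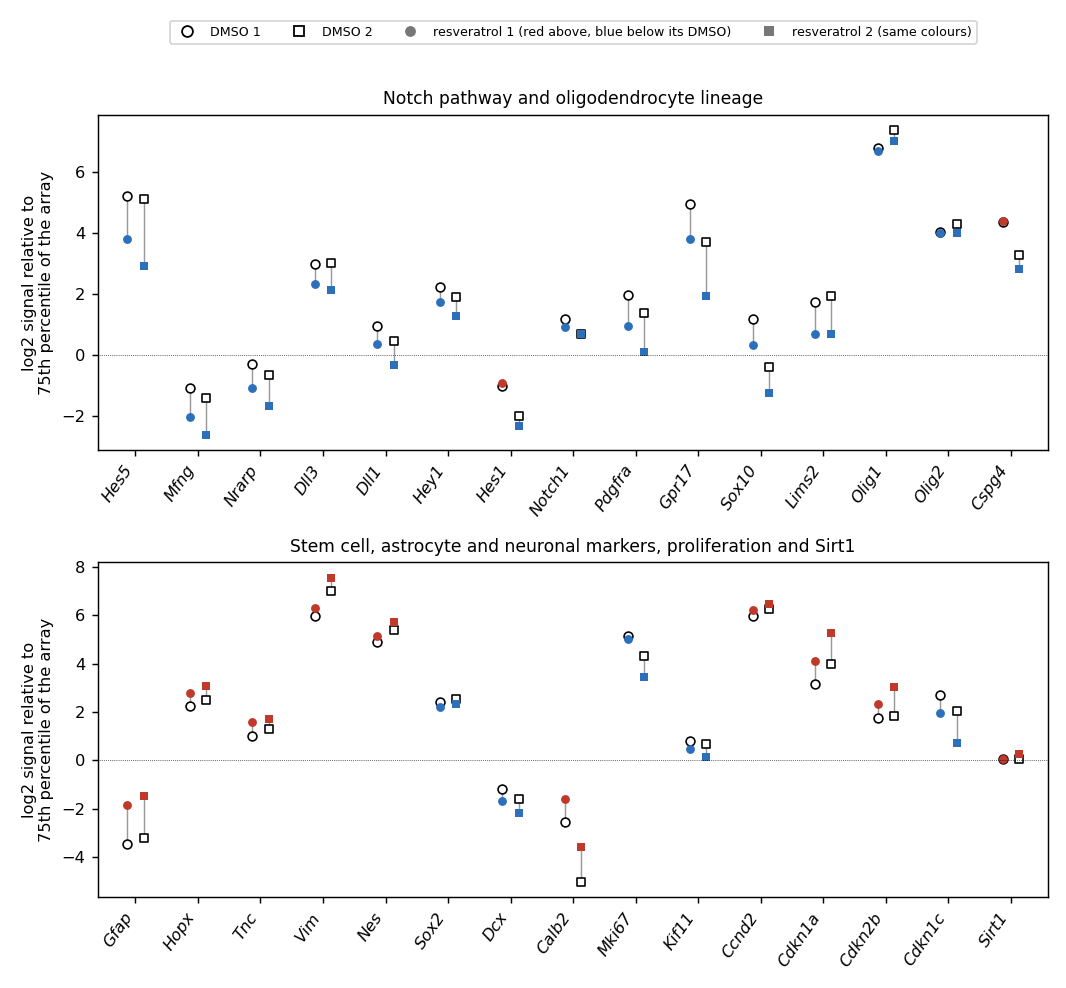
Level of lineage and cell cycle genes on the 4 arrays (log2 signal relative to the 75th percentile of the array, vertical), with symbols as in the plot of defence genes and red or blue for a resveratrol array above or below its DMSO array. Hes5, Mfng, Nrarp, Dll3, Dll1, Hey1, Pdgfra, Gpr17, Sox10 and Lims2 were lower in both pairs, and Hes1, Notch1, Olig1, Olig2 and Cspg4, which did not pass, lay closer together.

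Of 7 measured CDK inhibitors 2 rose and 1 fell. Besides Cdkn1a, the inhibitor p15 (Cdkn2b) rose by 0.89, from 1.76 and 1.82 to 2.34 and 3.02. Cdkn1c, the inhibitor p57 of quiescent stem cells, fell by 1.02 and passed over all pairs (adjusted p = 0.0463). Cdkn1b (-0.13), Cdkn2a (0.33), Cdkn2c (-0.15) and Cdkn2d (0.07) did not pass. Of 29 mitosis genes 2 fell, Mki67 (-0.50) and the spindle motor Kif11 (-0.43), and 22 were lower in both pairs, with a median of -0.15. Mki67 gave -0.15 in pair 1 and -0.86 in pair 2, and its groups overlapped. DNA replication genes had a median of -0.14, with 20 of 32 lower in both pairs and 0 called in either direction. Histone genes were lower in both pairs for 11 of 11 measured, and 1 passed. For comparison with the counts of these lists, 6.16% of all genes rose, 2.22% fell and 32.2% were lower in both pairs.

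Sirtuin genes, to which the best known target of the compound belongs, did not pass. Sirt1 read 0.04 and 0.05 with DMSO and 0.04 and 0.26 with resveratrol, a difference of 0.10 (SE 0.12, adjusted p = 0.678). Sirt2 to Sirt7 differed by between -0.06 and 0.23, and 0 of 17 sirtuin and NAD genes passed. Of 25 genes of mitochondrial biogenesis and PGC-1alpha 0 passed, with a median of 0.13. Over all genes 8.38% passed in either direction. Among 23 FoxO factors and targets 5 rose and 1 fell, where 6.16% of all genes rose and 2.22% fell. Fbxo32 (0.86), Gadd45a (0.80), Cited2 (0.77), Gadd45b (0.56) and Pik3ip1 (0.54) rose, and Klf15 (-0.85) fell. RNA level says nothing of the activity of an enzyme, which was not measured.

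Of 29 genes of the integrated stress response 6 fell, 3 rose and 20 did not pass, where 2.22% of all genes fell and 6.16% rose. The list median was -0.28 (-0.02 in pair 1 and -0.43 in pair 2). The glutathione-degrading enzyme Chac1 fell by 1.29, with -0.37 in pair 1 and -2.22 in pair 2. The arginine importer Slc7a1 (-0.72), the mitochondrial folate enzymes Mthfd2 (-0.59) and Shmt2 (-0.57), asparagine synthetase Asns (-0.58) and Pck2 (-0.44) fell. Those that rose were Slc7a11 and Sesn2 (0.55), which also stand in the glutathione and p53 lists, and the factor Cebpb (0.88). The drivers Atf4 (-0.28) and Ddit3 (0.03) did not pass (adjusted p = 0.215 and 0.941). Of 20 genes of the unfolded protein response 0 passed.

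Growth factor signalling and matrix genes changed in part, where 6.16% of all genes rose and 2.22% fell. Of 14 feedback targets of ERK 5 rose: the phosphatase Dusp4, from -0.62 and -0.14 to 0.52 and 1.35, or 2.49-fold (adjusted p = 0.0345 over the pairs of all 8 arrays), the receptor Epha2 (1.31), the AP-1 subunit Fosl1 (1.41), Spry4 (0.84) and Etv5 (0.46). Immediate early genes rose in 6 of 20 cases, with Fosl1, Fos (0.69), Klf4 (0.62), Ier3 (0.58), Junb (0.53) and Klf6 (0.47). Of 22 matrix genes 5 rose and 2 fell. The protease Mmp2 (1.16), its inhibitor Timp1 (1.04), osteopontin Spp1 (0.85), Tnc and Sparc (0.46) rose, and tenascin Tnr (-1.37) and Timp3 (-0.51) fell. Lysosomal and autophagy genes rose in 4 of 22 cases: Sqstm1, the protease Ctsd (0.77), Gabarapl1 (0.52) and Neu1 (0.50).

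**Figure D4:**
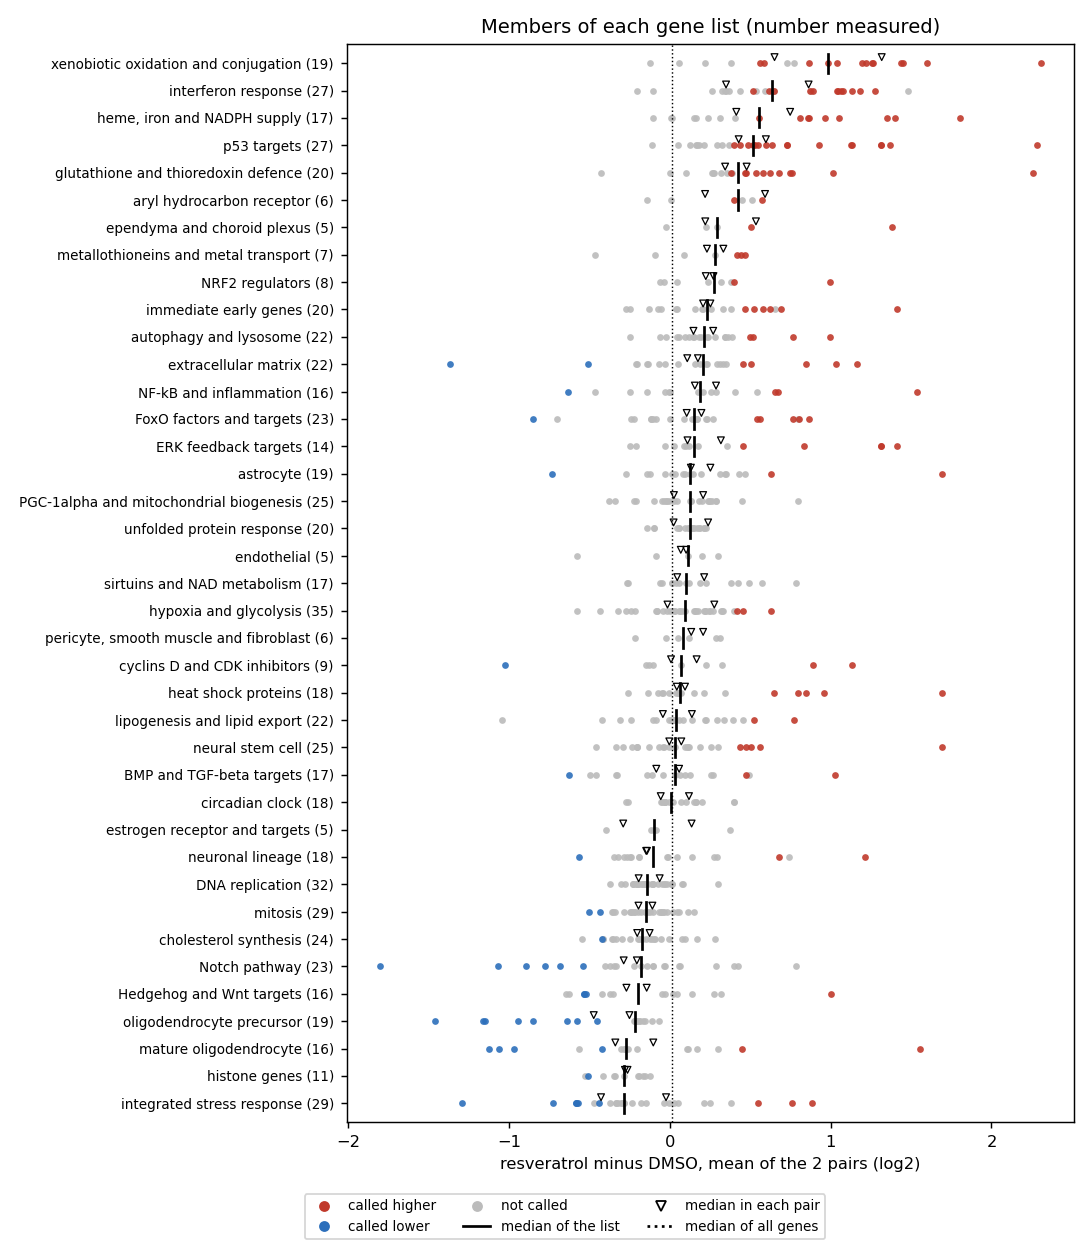
Mean difference of every measured member (points, resveratrol minus DMSO in log2 units, horizontal) in each list with at least 5 measured members, ordered by the list median (bar), with triangles for the median in each pair and a dotted line for the median of all genes, 0.0128. The xenobiotic, interferon, heme and iron, p53 and glutathione lists lie to the right with red points for called rises. The oligodendrocyte, Notch, histone and integrated stress response lists lie to the left. So do the Hedgehog and Wnt list (median -0.20) and the cholesterol synthesis list (-0.17), close to the Notch list (-0.18).

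Of the 12 genes that fell most by the smaller of their pair differences, 8 were not well above background on either resveratrol array. For these only a bound is given, and of them only Olfr1510 passed over the pairs of all 8 arrays (adjusted p = 0.0463). The olfactory receptor Olfr1510 was at least 4.16-fold lower, the medium-chain acyl-CoA synthetase Acsm3 at least 2.19-fold, the bombesin receptor Grpr at least 1.89-fold, Hsfy2 at least 1.59-fold, the acid phosphatase Acpp at least 1.55-fold, Dcpp3 at least 1.35-fold, Erv3 at least 1.04-fold and the keratin Krt33a at least 1.01-fold. The last pair of bounds are near 1, so these 2 genes show little beyond the detection limit, and with normexp background correction their differences were near 0 (0.0061 and 0.019). Under 6 alternatives of normalization, background correction, deposited values or probe averaging, Olfr1510 stayed called in all 6. Hsfy2 and Grpr stayed called in 3, Acpp and Acsm3 in 2 and Dcpp3 in 1. Measured on both sides were Hes5 and Gpr17, the ribonuclease angiogenin Ang, from -1.39 and -0.88 to -2.97 and -2.83, 3.40-fold lower (adjusted p = 7.82e-05; 0.0345 over the pairs of all 8 arrays), and the ammonium transporter Rhcg (-1.08 in pair 1 and -2.99 in pair 2).

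By its title, the series is about loss and gain of function of SIRT1; its arms are the knockout of Sirt1 and resveratrol, and SIRT1 activity was not measured. For each gene the resveratrol difference was therefore tested against the difference between Sirt1 knockout and wild type, with the replicate pairs of both arms as blocks. The differences differed for 36 genes (0.271% of 13302): 20 had the higher value under resveratrol and 16 the higher value in the knockout. Without the block the count was 0 (limma; 125 at an unadjusted p under 0.05). The arms also differ in strain and solvent. Within the knockout arm replicate 1 was female and replicate 2 male, and its replicate 1 arrays lay on different slides. Its replicate 2 arrays were scanned on another day than all other arrays. These differences cannot be told apart from the agents.

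Hes5 led the genes that were lower under resveratrol. It differed by -1.80 there and by 1.65 in the knockout, a difference of -3.45 (adjusted p = 0.00819). Gpr17 (-1.46 and 1.65), Cdkn1c (-1.02 and 1.48), the cadherin Celsr1 (-0.91 and 1.43), the chloride channel Ttyh1 (-0.87 and 1.08), Fgfr3 (-0.73 and 1.21) and the potassium channel Kcnj10 (-1.03 and 0.67) had the same signs. On the other side, Alox5 (2.94 under resveratrol and -0.80 in the knockout), Cst6 (2.70 and -0.50), Pf4 (1.55 and -1.42), the integrin Itga8 (1.33 and -1.70), the cytidine deaminase Cda (1.71 and -0.88), Clic5 (1.62 and -0.95) and Thy1 (1.51 and -0.56) had opposite signs too. Of the defence genes Srxn1 (2.26 and -0.08) and G6pdx (0.87 and -0.26) were among the 36. Cd82 was among them mainly through the knockout, since its resveratrol difference was 0.01 in pair 1 and -0.72 in pair 2, and so was Dera (0.41 and -1.90).

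**Figure D5:**
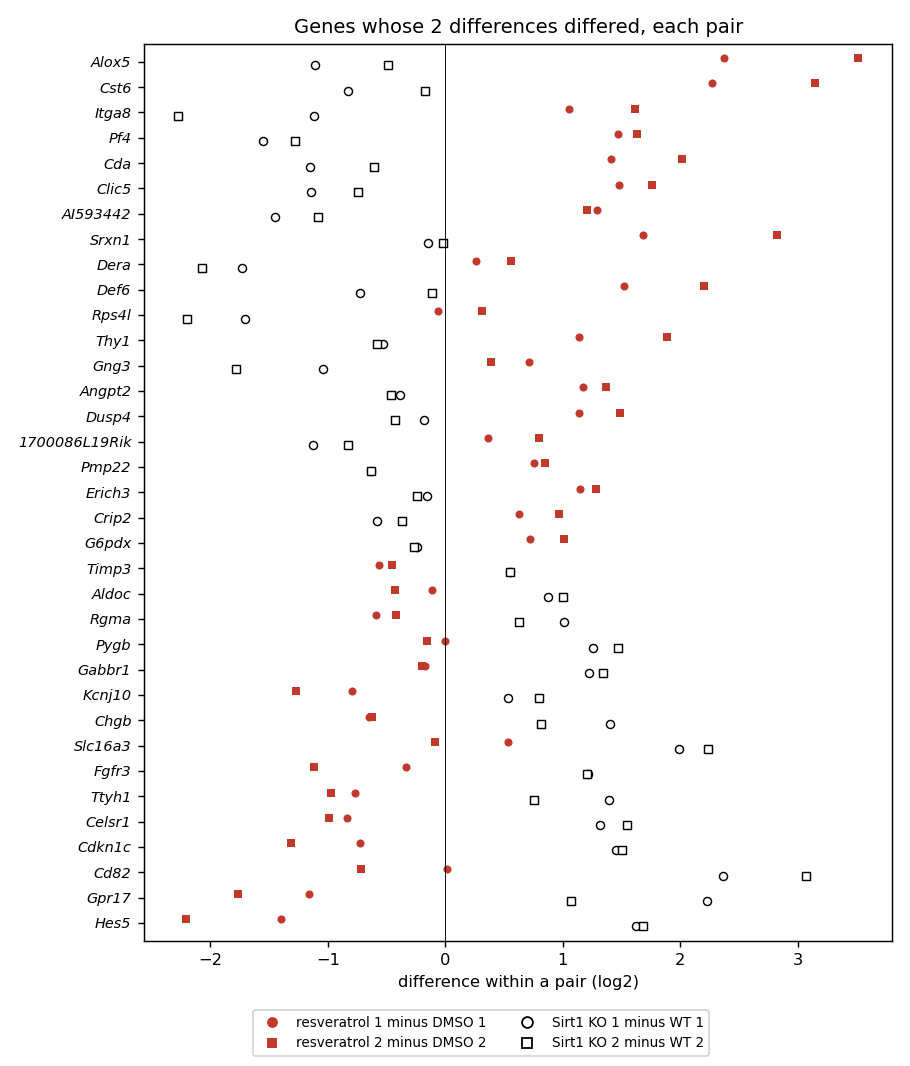
Difference within each pair (log2, horizontal) for 35 of the 36 genes whose 2 differences differed, with red symbols for resveratrol minus DMSO, open symbols for Sirt1 knockout minus wild type, circles for replicate 1 and squares for replicate 2. Hes5, Gpr17 and Cdkn1c lie left of 0 under resveratrol and right of 0 in the knockout, and Alox5, Cst6, Itga8 and Pf4 lie the other way round in both pairs.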

How the data were processed

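RNA was hybridized to one-colour Agilent arrays, 1 per sample. The deposited scanner files hold an intensity per spot, corrected by the authors' scanner software for background and spatial trend (Agilent Feature Extraction 10.7 per the submitters' processing notes, 10.7.3.1 per the file headers), with no normalization between arrays. The authors' deposited value table holds log2 values and served as an alternative. Of 45018 spots, 1639 controls and flagged outliers were left out, spots of a probe were averaged, and log2 intensities were centred on the 75th percentile of the array. A probe was kept if both arrays of any of the 4 groups called it well above background. Accessions were matched to RefSeq symbols (GRCm38.p6; 14264 probes unnamed and left out), and the brightest kept probe stood for its gene.

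limma 3.58.1 (R 4.3.3) fitted the 4 arrays with replicate number as a block, eBayes (trend on intensity, two-sided), and p-values adjusted by Benjamini-Hochberg over 13302 genes, called at 0.05. The pairing comes from the rule of the comparison, and replicates of the same number shared a slide per the file headers; DMSO and resveratrol arrays of one number deviated together from their group means (correlation 0.834 across genes). The fit was tested on simulated data. Of some lists, members that were counted are not reported here by name. The members and the 41 gene lists were chosen with earlier results of these data known. Named genes were the 12 strongest called each way by the smaller pair difference, called list members, and a fixed set of sirtuin, NRF2, p53, Notch and lineage genes. Alternatives covered the block, slide, normalization, background correction, centring, filter, probe choice, variance trend and each array left out. Normexp used the median spot signal in place of the mean. Promoter sequences are from RefSeq (GRCm38.p6). No interval covers more than the spread of 2 arrays per group, and their number limits the precision.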

Additional observations from a re-analysis of the deposited data

How the results depend on the processing

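The counts of calls rested on the paired design and on borrowing spread across genes. Without the replicate block, limma called 0 genes higher and 0 lower, over the same 4 arrays and over all 8, as did slide as a block over all 8 arrays (609 at an unadjusted p under 0.05) and the fit without the filter on dim probes (3386 of 18317 genes at an unadjusted p under 0.05). Without the intensity trend 2 genes rose (Crx and Olfr391) and 0 fell; with the replicate block over the pairs of all 8 arrays 50 rose and 7 fell. By normalization, quantile gave 319 and 143, the deposited values 425 and 190, and cyclic loess, chosen after seeing the data, 84 and 24. The mean of a gene's probes gave 503 and 155, and falls numbered 541 with normexp and 555 with 1 background per array (both chosen after seeing the data). The cause of these differences was not tested. The genes whose resveratrol difference differed from the knockout difference went from 36 to 0 without the block. Median centring and a filter on the 2 groups alone kept both counts within 1.5 times. Settings that change only the block, the arrays that share the spread or the intensity trend leave the difference of a gene as it is. Signs could not turn there. In fits of whole pairs with other values or probes, signs turned only with normexp and the mean of probes. Of the 1115 called genes 2 turned in each normexp version and 1 with the mean of probes. Among called genes named in the text, Erv3 (0.0061 and 0.034) and Krt33a (0.019 and 0.026) turned with normexp. Where an array was left out, more turned: 191 of the 1115 without resveratrol replicate 2 and 87 without DMSO replicate 1. Without DMSO replicate 2 the number was 25, and without resveratrol replicate 1 it was 18. The genes named in the text that turned in these fits follow with their ranges. Leaving out an array sets unlike replicates against each other: the counts ranged from 0 to 0, and the differences of these called genes turned sign in at least 1 of the 4 fits, with the ranges Akr1b8 -0.39 to 2.12, Blvrb -0.10 to 2.20, Calb2 -0.024 to 2.46, Celf4 -0.19 to 1.54, Ei24 -0.23 to 1.03, Fgfr3 -1.75 to 0.30, Fth1 -0.043 to 1.66, Gabarapl1 -0.43 to 1.47, Ggct -0.0037 to 0.76, Gsr -0.10 to 1.35, Gtse1 -0.32 to 1.39, Hspa1a -0.024 to 1.72, Id1 -0.36 to 1.30, Junb -0.012 to 1.06, Mki67 -1.28 to 0.27, Pf4 -0.51 to 3.61, Phlda3 -0.14 to 1.60, Plk2 -0.23 to 1.51, Ptgr1 -0.16 to 2.24, S100a10 -0.11 to 2.01, Sod1 -0.29 to 1.24, Spry4 -0.36 to 2.03, Tnr -3.19 to 0.46, Txn1 -0.22 to 1.16 and Vim -0.18 to 1.06.

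The small number of arrays limits precision. The signal over background was lower on the resveratrol arrays, and faint probes carry only bounds.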

Other observations

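Of the 57 genes that passed both over the 4 paired arrays and over the pairs of all 8 arrays, 19 stand in one of the gene lists and 38 in none. Those named here were chosen after their values were seen. Thy1, a glycolipid-anchored adhesion protein, went from 3.16 and 3.79 with DMSO to 4.29 and 5.68 with resveratrol, 2.85-fold (adjusted p = 6.14e-05; 0.0314 over the pairs of all 8 arrays). The tetraspanin Cd151 (2.45-fold), Tm4sf1 (3.47-fold), the galectin Lgals1 (1.93-fold), the annexin partner S100a10 (1.93-fold), S100a11 (1.96-fold), the myelin protein Pmp22 (1.74-fold) and the nuclear lamin Lmna (2.35-fold) rose too. Anxa2, the annexin that S100a10 binds, rose 2.01-fold but was short of the threshold over all pairs (adjusted p = 0.0672). Angpt2, an angiogenic ligand of the receptor TIE2, read 1.65 and 2.77 with DMSO and 2.82 and 4.14 with resveratrol, 2.41-fold. Dcxr, a carbonyl reductase, rose 3.43-fold and the glucuronosyltransferase Ugt1a6b 4.24-fold; the Ugt1a genes share exons, so a probe may read several of them.

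Among falls outside the lists, the inward rectifier potassium channel Kcnj10, typical of glia, went from 4.28 and 3.20 to 3.49 and 1.93. The voltage-gated potassium channel Kcnd2 fell, with -0.95 in pair 1 and -0.94 in pair 2, with levels of 1.45 and 1.55 against 0.50 and 0.61. The gluconeogenic phosphatase Fbp1 (-0.98), the myelin glycoprotein Omg (-0.75) and the mitochondrial acetyl-CoA synthetase Acss1 (-0.74) fell without overlap between groups. Over the pairs of all 8 arrays only 7 genes fell. Hes5, Cdkn1c, Ang, Olfr1510 and 1 mature oligodendrocyte gene were among them, so most falls named in this paragraph did not pass there.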
